A study of Homo sapiens with 6 samples.

Results

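Transcripts of 10 enzymes of serine synthesis and folate one-carbon metabolism were followed in HEK293, an established human cell line of embryonic kidney origin. The members were listed by name, each matched 1 row among the 57820 genes of the count table through its Ensembl identifier, and all 10 passed the filter on low counts that left 17225 genes to test. PHGDH, PSAT1 and PSPH make serine, SHMT1 and MTHFD1 are the cytosolic folate enzymes, and SHMT2, MTHFD2, MTHFD2L, MTHFD1L and ALDH1L2 are the mitochondrial ones. The minocycline group held 3 cultures given the tetracycline antibiotic minocycline at 100 µM for 12 h, and the control group held 3 cultures given the vehicle, DMSO, for 12 h. All cultures were of the same line, with no genetic change named in the labels, grown with penicillin and streptomycin and collected without heat shock. The labels number the replicates 1 to 3 and give the same number as the batch, and the series' design text calls them biological replicates.

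Cells build serine from the glycolytic intermediate 3-phosphoglycerate through PHGDH, PSAT1 and PSPH in turn. The serine hydroxymethyltransferases SHMT1 and SHMT2 move a carbon from serine to tetrahydrofolate and leave glycine, and the loaded folate then supplies purine, thymidylate and methionine synthesis or is returned to formate. In the cytosol MTHFD1 carries several activities on a single polypeptide, whereas in mitochondria these steps are shared among MTHFD2 or MTHFD2L and MTHFD1L, and ALDH1L2 oxidises formyl-folate to carbon dioxide. Several of these genes are known to be induced by ATF4, a transcription factor that acts in the integrated stress response, and tetracyclines bind the mitochondrial ribosome.

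Total counts per library ran from 17303180 to 17835756. The 5 matched markers of this line (NEFM, LIN28B, KRT8, KRT18 and VIM) had counts in every library, and of 7 matched markers of other cell types PTPRC, CD3E, HBB, ALB and CDH5 had at most 4 counts in any library, while COL1A1 lay between 53.0 and 81.1 and COL3A1 between 1.41 and 2.15 CPM (counts per 1000000 counts of a library, scaled with TMM factors). Control replicate 1 stood apart from the other controls on the first principal component, at -34.9 against 31.1 and 47.1, and lay beside minocycline replicates 1 and 2 (-14.0 and -32.3), with minocycline replicate 3 at 3.06. The share of counts in 85 cytosolic ribosomal protein genes was 7.39% in control replicate 1, against 11.00% and 12.2% in control replicates 2 and 3. With minocycline it was 8.32%, 7.33% and 10.8% for replicates 1 to 3. PHGDH, PSAT1 and SHMT2 rose with this share from library to library within both groups, and no other member did so. MTHFD1L ran largely against it, as given below. The part of this gradient in the members' results was not tested. In bulk RNA, a change in RNA per cell and a change in the make-up of the culture cannot be told apart.

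PSAT1, the transaminase of the second step of serine synthesis, was the 1 member that rose past the threshold. Its 3 minocycline libraries were at 352, 343 and 366 CPM, against 132, 142 and 157 CPM in the controls, so that the lowest treated library lay far above the highest control. PHGDH and PSPH, the other enzymes of serine synthesis, also had every treated library above every control, without passing the test. Among the folate enzymes SHMT2, MTHFD2 and MTHFD1L were likewise above all controls in every treated library and did not pass, and the cytosolic SHMT1 and MTHFD1 overlapped between groups. The plot of levels by library shows this for all 10 genes.

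**Figure D1:**
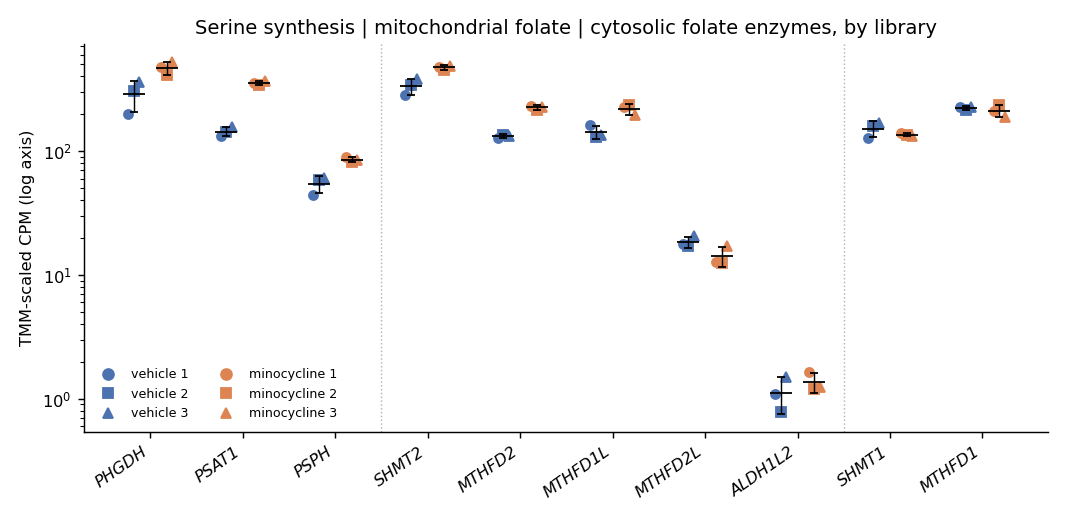
Level of each member (TMM-scaled CPM, log axis) in the 3 vehicle (blue) and 3 minocycline (orange) libraries, with symbols for replicates and bars for the group mean ± SD. PSAT1 separates widely, at 132 to 157 against 343 to 366 CPM, whereas SHMT1 and MTHFD1 overlap between groups.

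With edgeR's quasi-likelihood test over all 17225 genes, 9 genes passed a Benjamini-Hochberg adjusted p under 0.05, which is 0.0522% of those tested, and all 9 were higher with minocycline. PSAT1 ranked number 4 by p, with a log2 fold change of 1.30 ± 0.12 (SE, adjusted p = 0.00759). Before adjustment 6 of the 10 members had a p under 0.05 as higher genes, against 2.72% of all genes tested, and 0 as lower genes, against 1.97%. The groups did not overlap in the same number of members, 6 higher and 0 lower, where 5.74% of all genes lay wholly higher and 3.56% wholly lower. Over the 10 members the median log2 fold change was 0.56, and over all genes tested it was 0.01. The members were chosen with earlier results of these data known, so these contrasts with all genes do not measure how unusual the set is. In counts simulated from these libraries (17225 genes), the test found 4.48% of the genes given a 1.5-fold change and 49.3% of the genes given a 2-fold change. The 5 other members whose groups did not overlap had ratios of group means of 1.42 to 1.71. The simulation drew genes of all levels independently, without a gradient shared between genes. It therefore cannot show whether these members changed.

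Sequence upstream of the start was available in the RefSeq promoter table (GRCh38.p14) for 7 of the 10 members, namely PHGDH, PSAT1, MTHFD1, MTHFD2, MTHFD1L, MTHFD2L and SHMT1. The 250 bases before the start are shown for PSAT1, which passed the test, for MTHFD2 and PHGDH, whose groups did not overlap, and for SHMT1, whose groups overlapped, so that upstream sequence can be read beside the levels. All are written 5′ to 3′ on the strand of the gene, and capitals mark matches, on either strand, to CCAAT (a box bound by NF-Y), to CACGTG (the E-box) and to TGATGNAAN (the composite C/EBP-ATF response element bound by ATF4 with its partners).
PSAT1 (chr9:78296875-78297124, plus strand): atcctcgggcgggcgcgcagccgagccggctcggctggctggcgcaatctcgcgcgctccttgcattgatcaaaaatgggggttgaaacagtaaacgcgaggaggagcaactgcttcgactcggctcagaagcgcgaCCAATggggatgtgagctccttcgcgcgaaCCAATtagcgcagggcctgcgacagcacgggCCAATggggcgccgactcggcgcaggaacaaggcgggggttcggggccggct
MTHFD2 (chr2:74198365-74198614, plus strand): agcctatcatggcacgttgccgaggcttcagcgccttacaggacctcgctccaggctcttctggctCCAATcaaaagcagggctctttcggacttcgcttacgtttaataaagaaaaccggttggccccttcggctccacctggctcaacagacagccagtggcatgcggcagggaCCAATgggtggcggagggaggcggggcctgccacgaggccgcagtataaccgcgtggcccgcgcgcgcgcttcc
PHGDH (chr1:119711684-119711933, plus strand): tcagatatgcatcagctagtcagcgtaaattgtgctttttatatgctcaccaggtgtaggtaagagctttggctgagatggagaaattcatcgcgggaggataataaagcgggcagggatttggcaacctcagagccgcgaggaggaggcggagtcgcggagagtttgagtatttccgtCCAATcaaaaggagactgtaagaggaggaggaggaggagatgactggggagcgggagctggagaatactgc
SHMT1 (chr17:18363551-18363800, minus strand): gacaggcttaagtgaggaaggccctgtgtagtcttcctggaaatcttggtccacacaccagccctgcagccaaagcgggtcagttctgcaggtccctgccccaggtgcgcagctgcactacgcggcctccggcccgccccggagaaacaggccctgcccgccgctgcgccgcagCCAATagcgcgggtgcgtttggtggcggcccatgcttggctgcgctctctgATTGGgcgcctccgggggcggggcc

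CCAAT matched 3 times in the PSAT1 stretch, 2 times each in those of MTHFD2 and SHMT1 and 1 time in that of PHGDH. It was present upstream of 6 of the 7 members, all but MTHFD2L, so that genes whose groups separated and genes whose groups overlapped both carried it, and 32.0% of the 35116 upstream windows of all genes held it. CACGTG matched in MTHFD1L and MTHFD1, against 6.34% of all windows. TGATGNAAN matched in 1 member, MTHFD1L, against 3.13% of all windows, and that match lay 129 or 90 bases before the start in 2 of its 4 annotated windows. It is shown with 10 bases on either side, with the match in capitals.
MTHFD1L (chr6:150866347-150866375, plus strand): ccgccggctcTGATGCAATcgcgccgggc
A member was counted if any of its windows matched, and the 7 members have 11 windows, whereas the percentages are shares of single windows. Counts of members and these shares are thus not in the same unit. A match is a stretch of letters in these windows and not a measured binding site, and the motifs were searched in no other sequence.

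Of the serine synthesis enzymes, PHGDH is the dehydrogenase that takes 3-phosphoglycerate into the route. It was at 198, 305 and 359 CPM in control replicates 1, 2 and 3, and at 481, 409 and 521 CPM in minocycline replicates 1, 2 and 3. Every treated library was above every control, and control replicate 1 was well below the other controls. Within each group the level of PHGDH rose in the order of the ribosomal protein share. The group means were 287.6 ± 81.8 and 470.3 ± 56.8 CPM (SD, n = 3), and the log2 fold change of 0.71 ± 0.21 (SE) did not pass (adjusted p = 0.820). Without control replicate 1 it was smaller, at 0.50, and passed (adjusted p = 0.0198), where 9.52% of all genes tested passed as higher genes. Within batches 1, 2 and 3, each of which holds a control and a treated library, the log2 difference was 1.28, 0.42 and 0.54, so that the batch with control replicate 1 gave by far the largest value.

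For PSAT1, which makes phosphoserine, the within-batch differences were 1.42, 1.27 and 1.23, close to one another. The means were 143.6 ± 12.4 and 353.7 ± 11.9 CPM (SD, n = 3), a 2.46-fold change. Its call held in 11 of 14 other settings of the analysis, with a log2 fold change between 1.24 and 1.38 in all 14. It was lost without control replicate 2 (adjusted p = 0.0961), minocycline replicate 1 (0.104) or minocycline replicate 3 (0.0834), where the log2 fold change was 1.29, 1.30 and 1.26. The adjusted p over the 14 ran from 1.27e-17 to 0.104. Control replicate 1 was the lowest of the controls in PSAT1 too, by a smaller margin than in PHGDH. Both genes rose with the ribosomal protein share within each group.

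PSPH, the phosphatase that releases serine, was at 44.2, 58.2 and 60.5 CPM in the controls and at 89.9, 82.2 and 84.0 CPM with minocycline. Its treated libraries were close together and above every control, and control replicate 1 was again the lowest. The log2 fold change was 0.65 ± 0.15 (SE, adjusted p = 0.465), and it was 0.52 without control replicate 1, where it passed (adjusted p = 0.00893). With that library left out, 9.52% of all genes tested passed as higher genes. Within a library, PSPH counts were 0.223, 0.191 and 0.168 of those of PHGDH in the controls and 0.187, 0.201 and 0.161 with minocycline, so this ratio overlapped between groups. PSAT1 counts were 0.665, 0.466 and 0.436 of those of PHGDH in the controls and 0.731, 0.838 and 0.703 with minocycline. The PSAT1 ratio was thus higher in every treated library than in any control, and control replicate 1 came nearest to the treated libraries.

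Among the mitochondrial folate enzymes, MTHFD2, the dehydrogenase and cyclohydrolase of proliferating cells, had the tightest groups. It was at 126, 136 and 133 CPM in the controls and at 233, 215 and 227 CPM with minocycline, with a wide gap between the groups. The log2 fold change of 0.77 ± 0.12 (SE) had an adjusted p of 0.0780 and ranked number 16 of all genes by p. MTHFD2 passed in 4 of 14 other settings, with adjusted p from 1.39e-06 to 0.771 over the 14. These were library size scaling, DESeq2, no filter on low counts and the omission of control replicate 1, where 0.0755%, 0.273%, 0.224% and 9.52% of all genes tested passed as higher genes. Its within-batch differences were 0.88, 0.66 and 0.77.

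MTHFD1L, the mitochondrial formyl-folate synthetase that releases formate, was at 162, 130.3 and 136 CPM in the controls and at 226, 236 and 194 CPM with minocycline. The groups did not overlap, and control replicate 1 was here the highest control, the opposite of PHGDH and PSPH. In both groups the libraries with a larger share of ribosomal protein counts had less MTHFD1L, apart from control replicates 2 and 3, at 130.3 and 136 CPM with shares of 11.00% and 12.2%. The log2 fold change was 0.62 ± 0.14 (SE, adjusted p = 0.465). It was 0.72 without control replicate 1 (adjusted p = 0.00242), where 9.52% of all genes tested passed as higher genes. The plot of 4 members against the ribosomal protein share sets these patterns side by side.

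**Figure D2:**
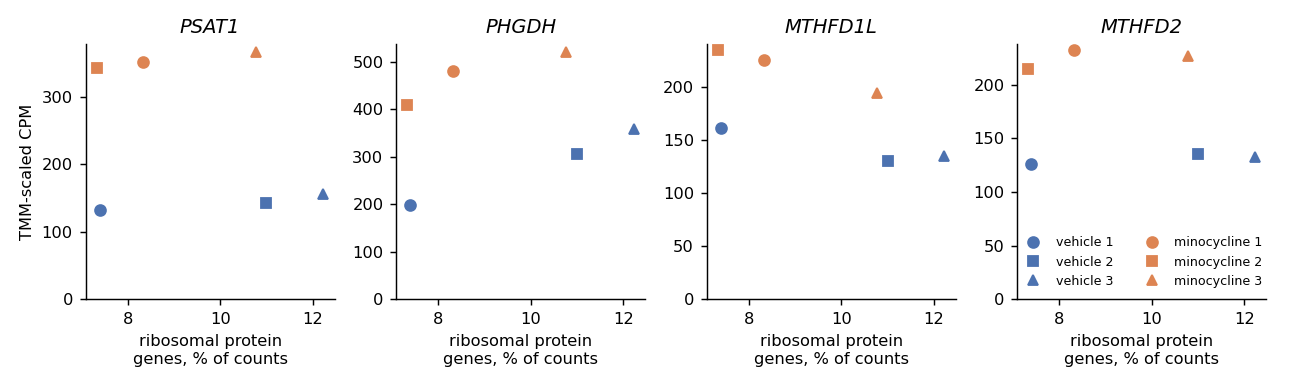
Level (TMM-scaled CPM, axis from 0) of PSAT1, PHGDH, MTHFD1L and MTHFD2 against the percentage of counts from cytosolic ribosomal protein genes in each of the 6 libraries, vehicle in blue and minocycline in orange. PHGDH is lowest in control replicate 1 (198 CPM at 7.39%), where MTHFD1L is the highest of the controls (162 CPM), and MTHFD2 spans 126 to 136 CPM over the controls. PSAT1 and PHGDH rise with the percentage within each group.

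SHMT2, the mitochondrial serine hydroxymethyltransferase, was at 281, 339.7 and 382 CPM in the controls and at 481, 450.2 and 489 CPM with minocycline. The treated libraries were all higher, and control replicate 1 was again the lowest. SHMT2 too rose in the order of the ribosomal protein share within each group. The log2 fold change of 0.50 ± 0.15 (SE) did not pass (adjusted p = 0.820), and it was 0.39 without control replicate 1, where it passed (adjusted p = 0.0346). With that library left out, 6 members passed as higher genes (PHGDH, PSAT1, PSPH, SHMT2, MTHFD2 and MTHFD1L), where 9.52% of 17658 genes passed in that direction, and 17.9% in either. With any other library left out at most 1 member passed.

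The remaining mitochondrial members did not follow. MTHFD2L, the other mitochondrial dehydrogenase, was at 17.6, 17.2 and 20.5 CPM in the controls and at 12.7, 12.6 and 17.2 CPM with minocycline. Minocycline replicates 1 and 2 were below every control, and minocycline replicate 3 was level with control replicate 2. Its log2 fold change was -0.38 ± 0.18 (SE, adjusted p = 0.820), and the within-batch differences were -0.47, -0.45 and -0.25. ALDH1L2 had 20, 13 and 25 counts in the controls and 30, 22 and 22 with minocycline, too few for a precise level, and its log2 fold change was 0.28 ± 0.34 (SE, adjusted p = 0.857). Neither gene passed in any of 14 other settings, where MTHFD2L ran from -0.55 to -0.30 and ALDH1L2 from 0.07 to 0.53.

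The cytosolic members overlapped between groups. SHMT1 was at 127, 160.5 and 168 CPM in the controls and at 141, 135 and 131 CPM with minocycline, where all treated libraries lay between control replicate 1 and the other controls. Its log2 fold change was -0.16 ± 0.14 (SE, adjusted p = 0.828). MTHFD1 was at 226, 213 and 228 CPM in the controls and at 209.9, 234 and 187 CPM with minocycline, so that the highest and the lowest library were both treated. Its log2 fold change was -0.08 ± 0.13 (SE, adjusted p = 0.889). Neither passed in any of 14 other settings, where SHMT1 ran from -0.28 to -0.08 and MTHFD1 from -0.16 to -0.01. The plot of fitted changes gives these values for all members.

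**Figure D3:**
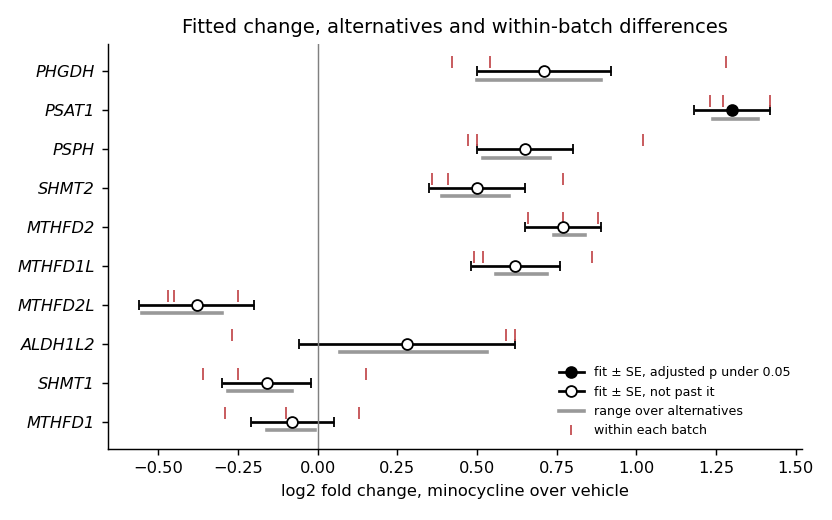
Fitted log2 fold change of each member (circle, ± SE; filled where the adjusted p is under 0.05), the range over 14 other settings (grey bar) and the difference within each of the 3 batches (red ticks). PSAT1 is filled at 1.30, 5 more members lie between 0.50 and 0.77, and SHMT1 and MTHFD1 lie near 0.

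Setting a mitochondrial enzyme against its cytosolic counterpart within the same library removes the scaling between libraries. The 6 ratios share genes, with MTHFD1, MTHFD2 and MTHFD2L each in more than 1. They are thus not independent of one another or of the member levels above. SHMT2 counts were 2.21, 2.12 and 2.27 times those of SHMT1 in the controls and 3.41, 3.33 and 3.72 times with minocycline. The controls were nearly alike, control replicate 1 included, and the treated libraries were all higher. The mean log2 ratio went from 1.14 ± 0.05 to 1.80 ± 0.08 (SD, n = 3), a difference of 0.66, and was 0.63, 0.65 and 0.71 within batches 1, 2 and 3. In a two-sided exact permutation test p was 0.1, the smallest that 3 against 3 libraries can give, and 0.15 adjusted over the 6 ratios tested, so the test could not pass a threshold of 0.05.

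MTHFD2 counts were 0.560, 0.636 and 0.583 of those of MTHFD1 in the controls and 1.11, 0.919 and 1.21 with minocycline. The log2 difference was 0.86 (exact permutation p = 0.1, adjusted 0.15), and within batches it was 0.98, 0.53 and 1.05. MTHFD2 counts thus exceeded those of MTHFD1 in 2 of the 3 treated libraries, but its canonical transcript is longer (4403 against 3154 bases). Per kilobase, the mean of MTHFD2 with minocycline stayed below that of MTHFD1, at 51.1 ± 2.1 against 66.7 ± 7.4 CPM per kb (SD, n = 3). MTHFD1L counts were 0.716, 0.611 and 0.595 of those of MTHFD1 in the controls and 1.08, 1.01 and 1.04 with minocycline, a log2 difference of 0.71 (exact permutation p = 0.1, adjusted 0.15). Here too the ratio was higher in every treated library than in any control.

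MTHFD2L against MTHFD1 ran the other way by its mean, at 0.0781, 0.0807 and 0.0898 in the controls and 0.0606, 0.0537 and 0.0920 with minocycline, and the groups overlapped (log2 difference -0.31, exact permutation p = 0.4). Leaving out single libraries moved this difference to -0.15 without minocycline replicate 2 and to -0.53 without minocycline replicate 3. ALDH1L2 against its cytosolic isoenzyme ALDH1L1 was at 0.339, 0.146 and 0.391 in the controls and 0.411, 0.550 and 0.386 with minocycline. These ratios rest on 13 to 30 counts of ALDH1L2, overlapped between groups and gave an exact permutation p of 0.2 at a log2 difference of 0.71, which was 0.28 without control replicate 2. Within mitochondria, MTHFD2 counts were 7.18, 7.89 and 6.49 times those of MTHFD2L in the controls and 18.3, 17.1 and 13.2 times with minocycline. This was the largest of the 6 differences, 1.16 on the log2 scale (exact permutation p = 0.1, adjusted 0.15), and every treated library was above every control.

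Summed over the 5 mitochondrial members and over SHMT1 and MTHFD1, the mitochondrial to cytosolic count ratio was 1.67, 1.67 and 1.70 in the controls and 2.72, 2.48 and 2.91 with minocycline. The means were 1.68 ± 0.02 and 2.70 ± 0.22 (SD, n = 3), a log2 difference of 0.69. The sum is carried by SHMT2, MTHFD2 and MTHFD1L, since with each enzyme weighted alike the difference was 0.48. The plot of ratios by library shows the pairs.

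**Figure D4:**
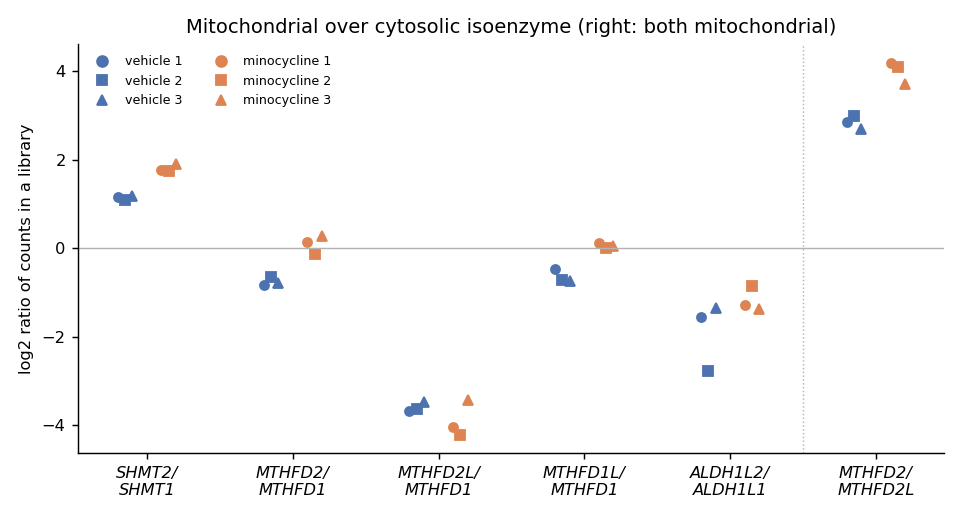
Log2 ratio of counts of a mitochondrial enzyme to its cytosolic counterpart in each library, and of MTHFD2 to MTHFD2L at the right, vehicle in blue and minocycline in orange. SHMT2/SHMT1, MTHFD2/MTHFD1, MTHFD1L/MTHFD1 and MTHFD2/MTHFD2L do not overlap between groups, and MTHFD2L/MTHFD1 and ALDH1L2/ALDH1L1 do.

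Levels can be compared between genes per kilobase of the canonical transcript. In the controls SHMT2 and PHGDH were highest, at 155 ± 23.5 and 154 ± 43.8 CPM per kb (SD, n = 3), and did not differ beyond their spread. MTHFD1 (70.5 ± 2.5), PSAT1 (65.1 ± 5.6) and SHMT1 (60.1 ± 8.7) followed at similar levels, then MTHFD1L (41.3 ± 4.9), then MTHFD2 (29.9 ± 1.1) beside PSPH (27.5 ± 4.5). MTHFD2L was at 7.83 ± 0.76 and ALDH1L2 at 0.151 ± 0.050 CPM per kb. With minocycline PHGDH was at 252 ± 30.5, SHMT2 at 219 ± 9.4 and PSAT1 at 160.3 ± 5.4 CPM per kb. PSAT1 then stood well clear of MTHFD1, at 66.7 ± 7.4, beside which it had ranked in the controls, while MTHFD1L, at 63.4 ± 6.3, lay level with MTHFD1. MTHFD2, at 51.1 ± 2.1, stayed below MTHFD1. Annotated isoforms outside the canonical transcript could change these lengths.

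The genes whose pattern over the 6 libraries was most like that of a member were found by the root mean square difference of centred log2 CPM among 11873 other genes with a mean of at least 5 CPM. For PHGDH they were CALCB (0.07), ATF4 (0.08) and TRIB3 (0.09). ATF4 was at 528, 751 and 795 CPM in the controls and at 1204, 987 and 1298 CPM with minocycline. It had a low control replicate 1 and the same order of treated libraries as PHGDH. That order was also found in PSAT1, SHMT2, MTHFD2L and the ribosomal protein share, so it is not particular to ATF4 and PHGDH. The likeness of ATF4 to PHGDH follows from the way these genes were picked, and a link between them was not tested. The log2 fold change of ATF4 was 0.75 ± 0.19 (SE, adjusted p = 0.810). For MTHFD2 the nearest were the amino acid transporter gene SLC43A1 (0.06) and the cysteinyl- and glycyl-tRNA synthetase genes CARS1 (0.08) and GARS1 (0.08). For PSAT1 they were the asparagine synthetase gene ASNS (0.18), the growth factor gene VEGFA (0.22) and the alanine transaminase gene GPT2 (0.22).

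Around these enzymes, 6 lists of neighbouring pathway genes held 53 names, of which 49 were tested and 0 passed with edgeR's test, while DESeq2 called 1 and limma-voom 0. Before adjustment 3 had a p under 0.05 as higher genes and 0 as lower genes, against 2.72% and 1.97% of all genes tested. The groups did not overlap in 4 of the 49 as higher and in 3 as lower genes. Of all genes tested, 5.74% lay wholly higher and 3.56% wholly lower. Without control replicate 1, where 17.9% of all genes passed, 9 of the pathway genes passed. In the list of enzymes that use serine and glycine (13 tested, median log2 fold change 0.10), the transsulfuration enzymes CBS and CTH had the smallest p. CBS, which joins serine to homocysteine, was at 104, 132 and 142 CPM in the controls and 247, 207 and 243 CPM with minocycline, and CTH, which splits the product into cysteine, was at 8.37, 10.3 and 11.1 CPM and then 15.4, 15.1 and 14.3 CPM. Both had every treated library above every control, at log2 fold changes of 0.88 ± 0.15 (SE, adjusted p = 0.159) and 0.59 ± 0.17 (adjusted p = 0.820). CBS passed in 3 of 14 other settings (adjusted p from 0.000135 to 0.935), namely with DESeq2, without a filter on low counts and without control replicate 1, and CTH passed in the last alone.

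Folate transport and conversion had 14 genes tested, 7 with a higher and 7 with a lower fitted level and a median of -0.04, and the smallest p belonged to the folate carrier SLC46A1 (0.37 ± 0.16, adjusted p = 0.820) and the dihydrofolate reductase DHFR2 (0.47 ± 0.23, adjusted p = 0.820). In the glycine cleavage system, which breaks glycine down in mitochondria, 3 of 4 genes had a higher fitted level (median 0.25), with GLDC at 0.34 ± 0.15 and AMT at 0.56 ± 0.28 (adjusted p = 0.820 for both). The 3 sideroflexins that carry serine into mitochondria had a median of -0.13, with SFXN3 at -0.15 ± 0.13 and SFXN1 at -0.13 ± 0.12. The methionine cycle (9 tested) had a median of 0.14, with MAT2B at -0.21 ± 0.12 and BHMT2, a gene with group means under 1 CPM, at 0.87 ± 0.57. The 6 enzymes of purine ring synthesis, which take up formyl groups, had a median of 0.06, and the smallest p were those of PPAT (0.17 ± 0.21) and GART (0.09 ± 0.13). The plot of pathway genes shows the spread of each list.

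**Figure D5:**
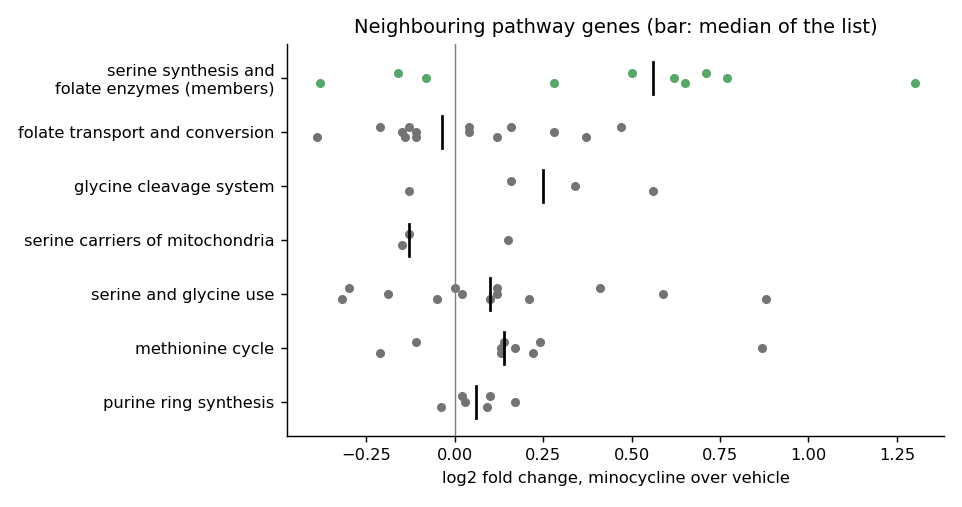
Log2 fold change of each tested gene (points) in the 10 members (green) and in 6 lists of neighbouring pathway genes (grey), with the median of each list as a bar. The members have a median of 0.56 and the other lists lie between -0.13 and 0.25. Members and lists were chosen with earlier results of these data known.

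In GRCh37 coordinates, which hg19 shares for these chromosomes, the annotation places PHGDH on chromosome 1 from 120191034 to 120286841, PSAT1 on chromosome 9 from 80912041 to 80945009 and PSPH on chromosome 7 from 56078744 to 56119297. SHMT1 lies on chromosome 17 from 18231174 to 18266877, MTHFD1 on chromosome 14 from 64854749 to 64930175 and SHMT2 on chromosome 12 from 57623356 to 57628718. MTHFD2 lies on chromosome 2 from 74413299 to 74444692, MTHFD1L on chromosome 6 from 151186815 to 151423023, MTHFD2L on chromosome 4 from 74979891 to 75168816 and ALDH1L2 on chromosome 12 from 105413562 to 105501421. PSPH, SHMT1 and ALDH1L2 are on the minus strand and the others on the plus strand, all are protein-coding, and counts are sums over a gene. Annotated pseudogene copies named for PSAT1 (4), PSPH (1), SHMT1 (1), MTHFD1 (1) and MTHFD2 (7) had at most 7 counts in any library. For 6 members the annotation has genes on the opposite strand that share exonic bases with them, and reads in a shared stretch cannot be assigned without strand, whose use in the counting is not given in the sources used here. SHMT1 shares 197 bases with SMCR8, which had 595, 202 and 179 counts in the controls and 517, 566 and 122 with minocycline. ALDH1L2 shares 131 bases with WASHC4, at 643, 267 and 233 counts in the controls and 367, 518 and 440 with minocycline, and 145 bases with NOPCHAP1, at 231, 246 and 257 and then 192, 174 and 215 counts. As whole genes both are far above the 13 to 30 counts of ALDH1L2, and the shared stretches are 1.38% and 1.53% of its exonic length. Whether reads of these genes were counted for ALDH1L2 was not tested, so its level stays uncertain. MTHFD2 shares 1324 bases, 11.57% of its exonic length, with SLC4A5, which had 22, 14 and 11 counts in the controls and 12, 12 and 22 with minocycline. MTHFD1 shares 1556 bases, 8.96% of its exonic length, with an unnamed long non-coding RNA at 57, 24 and 39 and then 44, 40 and 42 counts. The remaining overlaps of MTHFD1, MTHFD2, MTHFD2L and SHMT2 with such genes cover 33 to 352 bases each.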

How the data were processed

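The authors deposited 1 table of raw, whole-number counts per gene for 6 total RNA libraries of HEK293 cells, with no normalization; per the labels' protocols a NEBNext Ultra II kit and paired-end sequencing were used, and per the submitters' processing notes the build was hg19. The way RNA was selected (poly(A) or removal of ribosomal RNA), aligner, counter, annotation and strand use are not given in the sources used here. Symbols came from a GENCODE table (55538 of 57820 identifiers matched, holding 99.1% of counts), and positions and canonical transcript lengths from GENCODE mapped to GRCh37.

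Genes were filtered with filterByExpr, scaled with TMM and tested with edgeR 4.0.16 (glmQLFit, glmQLFTest; R 4.3.3), treatment being the single term, with Benjamini-Hochberg adjustment over 17225 genes and calls under 0.05. CPM values are TMM-scaled, and the SE is the log2 fold change over the square root of F. Within-library isoenzyme ratios used counts plus 0.5 on the log2 scale and a two-sided exact permutation test, adjusted over 6 ratios. Alternatives were other scalings, DESeq2 1.42.0, limma-voom (limma 3.58.1), other filters, a replicate block and each library left out. The test was run on simulated counts first. Replicate numbers are also batch labels, which is where the pairing comes from. Over genes, deviations from the group means correlated at -0.05, -0.29 and 0.30 for same-numbered libraries. For differently numbered libraries they ran from -0.42 to 0.50, the highest being control replicate 1 with minocycline replicate 2. Same-numbered libraries thus did not stand out as more alike. No library repeated another.

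All members, the pathway genes past the threshold, the 2 with the smallest p in each list, and the 3 genes most like PSAT1, MTHFD2 and PHGDH are named; SMCR8, WASHC4, NOPCHAP1 and SLC4A5 were named after their counts were seen. Members and lists were chosen with earlier results of these data known.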

Additional observations from a re-analysis of the deposited data

How the results depend on the processing

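The number of genes called moved most with a single library: leaving out each library in turn gave 1 to 1681 higher genes, 0 to 1473 lower genes and 0 to 6 members, and the highest value in each case came without control replicate 1. DESeq2 called 47 higher and 2 lower genes, no filter on low counts 75 and 19, and the replicate block 12 and 1. Members called were 2 with library size scaling, 2 with DESeq2 and 3 with no filter on low counts. With the replicate block, PSAT1 had a log2 fold change of 1.30 (adjusted p = 0.00508), and no other member passed. No member changed direction in any of the 14 settings. MTHFD2 passed with library size scaling (0.84), DESeq2 (0.75) and no filter on low counts (0.75), and PHGDH with no filter on low counts (0.69). Leaving out each library in turn gave 0.50 to 0.89 for PHGDH, 1.24 to 1.36 for PSAT1, 0.52 to 0.73 for PSPH, 0.39 to 0.60 for SHMT2, 0.74 to 0.80 for MTHFD2 and 0.56 to 0.72 for MTHFD1L. The medians ran from 0.18 to 0.29 for the glycine cleavage list, from 0.01 to 0.06 for serine and glycine use (0.10 with all libraries), from 0.04 to 0.25 for the methionine cycle and from -0.14 to -0.09 for serine carriers. Those of purine ring synthesis (-0.02 to 0.10) and folate transport and conversion (-0.09 to 0.01) took both signs. With the same libraries left out, 0 to 9 pathway genes passed, 9 of them without control replicate 1. The cause of these losses and gains was not tested. The isoenzyme differences stayed within 0.62 to 0.70 for SHMT2/SHMT1 and 1.07 to 1.30 for MTHFD2/MTHFD2L but ran from -0.53 to -0.15 for MTHFD2L/MTHFD1 and from 0.28 to 0.98 for ALDH1L2/ALDH1L1, both moved over 1.5 times by single libraries, and the summed ratio was 0.48 when each enzyme weighed the same. At 13 to 30 counts, depth limits ALDH1L2.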
